A study of Mus musculus with 31 samples.

Results

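The effect of losing GIT2 was compared between spleen and thymus of the same mice, gene by gene, as the change in GIT2KO spleens against WT spleens minus the change in GIT2KO thymuses against WT thymuses. The members are 12 of the 27 samples of the series: 3 GIT2KO spleens, 3 WT spleens, 3 GIT2KO thymuses and 3 WT thymuses, measured on 14 of the 31 arrays. All donors were males of 12 months that were fasted before tissue was taken. The GIT2KO mice are homozygous for a gene trap in Git2 on a C57BL/6 background, present in all cells and not in 1 cell type, and the WT mice are C57BL/6. Each spleen has a thymus of the same animal beside it, so the 12 samples come from 6 animals. Whole-organ RNA was hybridised to Illumina MouseRef-8 bead arrays, on which a probe is designed to read a transcript.

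GIT2 is a GTPase-activating protein for the small GTPase ARF6 and a scaffold that holds PIX exchange factors, PAK kinases and paxillin at sites of adhesion and receptor signalling. The spleen filters blood, stores and clears red cells and granulocytes in its red pulp, holds T and B cell zones in its white pulp, and in mice keeps some blood formation through adult life. The thymus makes T cells from precursors in an epithelial frame, and with age its tissue is largely replaced by fat. A gene that only 1 of these cell types expresses can therefore respond in 1 organ and be silent in the other.

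Values are log2 levels after background correction and quantile normalization, on which the 12 samples ran from 4.41 to 14.65. A difference of effects is the spleen effect minus the thymus effect in log2 units, so a positive one means that the effect of GIT2KO was higher in spleen than in thymus. It was tested with limma in 1 model over all 9 groups of the series, with Benjamini-Hochberg adjustment over all 15291 transcripts tested and a threshold of 0.05. These transcripts had a detection p under 0.05 on 3 or more arrays, of 25697 probes on the array, and they represent 10496 genes. Where a genotype did not detect a transcript on any array, its fold is a lower bound ("at least"), taken against the array's detection limit of 5.2 to 5.68. Level values of different genes come from different probes and are not compared. Lymphocyte markers separated the organs by their labels: Rag1, which cuts the antigen receptor genes in thymocytes, lay at 5.34 to 6.21 in spleens and 12 to 12.19 in thymuses, and Cr2, a complement receptor of B cells, at 7.99 to 9.29 in spleens and 4.52 to 4.85 in thymuses.

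The effect of GIT2KO differed between the organs for 454 of 15291 transcripts (2.97%), with 281 higher and 173 lower in spleen. By gene, 192 of 10496 (1.83%) had a higher effect in spleen and 129 (1.23%) a lower one. At an unadjusted p under 0.05 there were 2869 transcripts, and 313 of the 454 differed by over 2-fold. For 295 of the 454 the genotype contrast passed in spleen alone, for 125 in thymus alone, for 19 in both with opposite signs, for 9 in both with the same sign and for 6 in neither. All 4 groups detected 266 of the 454, while 84 were detected in no thymus and 46 in no spleen, so that the difference of those rests on 1 organ. Across all 15291 transcripts the 2 effects ran together, with r = 0.518 across transcripts, which are not independent replicates, and the median difference was 0.02.

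**Figure D1:**
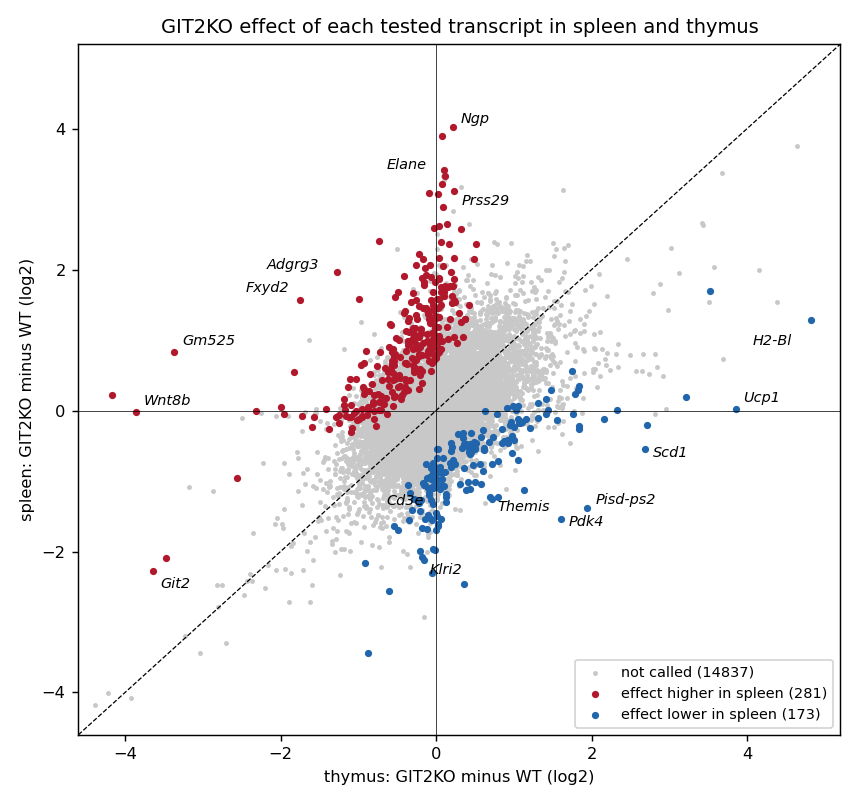
Effect of GIT2KO on each of the 15291 tested transcripts, in spleen (vertical axis, log2) against thymus (horizontal axis, log2), with the line of equal effects dashed. Red points (281) had a higher and blue points (173) a lower effect in spleen, and they lie mostly along the axes, where 1 of the 2 effects is near 0.

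The count depended on the samples and on the spread used to judge them. It was 215 without GIT2KO spleen 2, 259 without GIT2KO spleen 1, 277 without WT thymus 2, 279 without GIT2KO thymus 1, 293 without GIT2KO thymus 2 and 1171 without WT spleen 2. When the 4 groups were fitted alone, without the lymph nodes that share the estimate of spread, 110 transcripts passed, 99 of them among the 454. With the animal as a fixed block 694 passed (396 higher, 298 lower in spleen), and 446 of the 454 were among them. With arrays scaled to their median in place of quantile normalization, 172 passed as higher and 55 as lower (75.8% higher, against 61.9%), and the median of all transcripts was 0.131.

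Git2 itself fell in both organs. Its levels were 6.64, 6.22 and 5.89 in GIT2KO spleens and 8.78, 8.31 and 8.49 in WT spleens, against 5.32, 5.36 and 5.55 in GIT2KO thymuses and 8.92, 9.32 and 8.93 in WT thymuses. The genotypes did not overlap in either organ, and all 4 groups detected the transcript, with the GIT2KO thymuses at the detection limit. The effect was -2.27 in spleen and -3.64 in thymus, a difference of 1.37 ± 0.34 (SE, adjusted p = 0.0295 by limma). The other 2 probes gave 1.38 (adjusted p = 0.00218) and 1.22 (adjusted p = 0.0643). The call on the first probe was lost without GIT2KO spleen 1, GIT2KO spleen 2, WT spleen 3, GIT2KO thymus 1, GIT2KO thymus 2 or WT thymus 2. It was also lost with the 4 groups fitted alone and with each organ normalized by itself, and in 14 of 35 alternative settings in all.

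Among 59 named genes that passed, 11 also passed under each of the 35 alternatives run: Gm525, Wnt8b, Fxyd2, Adgrg3, Ms4a3, Prss29 and Aqp11, with a higher effect in spleen, and H2-Bl, Slc5a9, Klri2 and Fgf13, with a lower one. Of these, Wnt8b and Klri2 were detected in 1 organ and 1 genotype.

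Wnt8b, a secreted ligand of the WNT pathway, had the smallest p of the comparison. It lay at 4.77, 4.71 and 4.97 in GIT2KO thymuses and at 8.65, 8.86 and 8.53 in WT thymuses, and no spleen of either genotype detected it. WT thymus was thus the group of the 4 that detected it, and GIT2KO thymus was at least 10.1-fold lower. The difference of effects was 3.84 ± 0.16 (adjusted p = 3.11e-14 by limma). Gm525, a predicted gene, was 10.3-fold lower in GIT2KO thymus (7.53, 7.59 and 7.76) than in WT thymus (10.91, 11.22 and 10.84). In spleen it was low and moved the other way, at 6.07, 6.25 and 5.59 in GIT2KO spleens and 5.27, 5.22 and 4.93 in WT spleens. Its difference of 4.19 ± 0.33 (adjusted p = 1.29e-08) compares with 4.38 on its second probe, which was detected in no spleen and did not show the spleen move (0.22, adjusted p = 0.441). Aqp11, a water channel of intracellular membranes, was 3.56-fold lower in GIT2KO thymus, at 9.69, 9.39 and 9.55 against 11.44, 11.38 and 11.31 in WT thymus. Its spleen values overlapped between the genotypes, with an effect of 0.54 (adjusted p = 0.0956).

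H2-Bl, a class I gene of the major histocompatibility complex, was detected in GIT2KO samples and in no WT sample of either organ. It lay at 9.59, 9.63 and 9.57 in GIT2KO thymuses against 4.64, 4.91 and 4.78 in WT thymuses, at least 18.3-fold higher. In GIT2KO spleens it reached 6.01, 6.06 and 5.86 against 4.63, 4.53 and 4.93 in WT spleens, at least 1.5-fold higher. The difference was -3.54 ± 0.20 (adjusted p = 3.02e-11), the largest in size among genes that passed in both organs with the same sign. Slc5a9, a sodium-coupled sugar transporter, was 5.03-fold higher in GIT2KO thymus (9.91, 9.39 and 9.70) than in WT thymus (7.05, 7.51 and 7.45) and was detected in no spleen. Its difference was -2.32 ± 0.19 (adjusted p = 2.57e-08).

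Klri2, a lectin-like receptor of natural killer cells, moved in spleen alone. It was not detected in GIT2KO spleens (4.73, 4.86 and 4.90) and lay at 7.30, 6.54 and 7 in WT spleens, at least 2.98-fold lower, while no thymus detected it. Prss29, a serine protease of the tryptase group, did the reverse: 8.56, 8.37 and 8.86 in GIT2KO spleens against 5.34, 5.23 and 5.89 in WT spleens, 8.63-fold higher. Its thymus values overlapped between genotypes, and all 3 of its probes passed, at 2.88, 2.59 and 1.84.

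**Figure D2:**
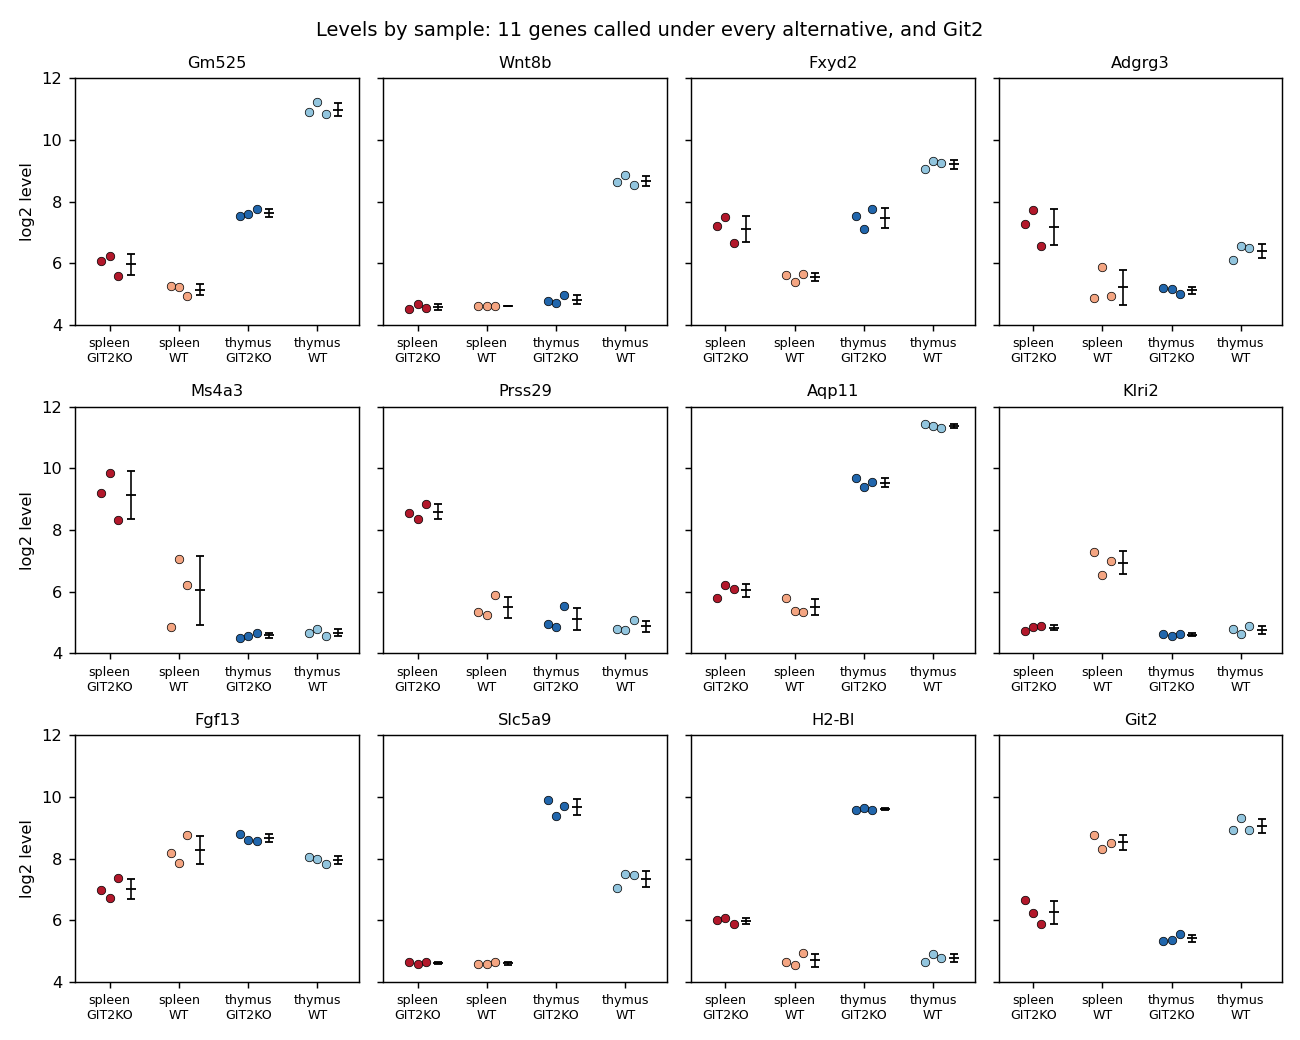
Log2 level in each of the 12 samples (points, 3 per group, bars mean and SD) for the 11 named genes that passed under each alternative and for Git2. Wnt8b stands above the detection limit in the 3 WT thymuses, and H2-Bl in the GIT2KO samples of both organs.

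For 19 transcripts, 17 of them from 16 named genes, the 2 organs moved in opposite directions, each past the threshold: 13 had a positive effect in spleen and a negative one in thymus, and 6 the reverse. All 4 groups detected 14 of the 19 (9 and 5), where 1 array was enough for a group to count. Gm525, 1 of the 14, was detected on 1 WT spleen array. Cdh3 was detected in no spleen, and Gm1604b on 1 spleen array, so that their spleen effects lie within background. Fxyd2, a regulatory subunit of the sodium pump, lay at 7.22, 7.49 and 6.66 in GIT2KO spleens and 5.62, 5.39 and 5.64 in WT spleens, but at 7.52, 7.12 and 7.75 in GIT2KO thymuses and 9.05, 9.32 and 9.26 in WT thymuses. The genotypes did not overlap in either organ, at 2.98-fold higher in GIT2KO spleen and 3.35-fold lower in GIT2KO thymus, and the difference was 3.32 ± 0.46 (adjusted p = 0.000121 by limma). Its other 2 probes did not show opposite effects. The first of them passed at 1.94 but was detected in no thymus, and the other gave 1.5 (adjusted p = 0.081) and was detected in no spleen. Adgrg3, an adhesion receptor of granulocytes, rose 3.89-fold in GIT2KO spleen and fell at least 2.07-fold in GIT2KO thymus, which did not detect it. Only 1 WT spleen array detected it, with WT spleens at 4.87, 5.88 and 4.92, so the spleen fold is taken against values near the detection limit.

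In the reverse group, Pdk4, the kinase that shuts off pyruvate dehydrogenase in fasting, lay at 6.48, 6.91 and 7.07 in GIT2KO spleens and 8.34, 8.22 and 8.50 in WT spleens, with no overlap. In thymus it lay at 9.67, 9.71 and 7.53 in GIT2KO and 7.23, 8.34 and 6.54 in WT, where the values overlap. Its difference was -3.13 ± 0.73 (adjusted p = 0.0187), and the call was lost without GIT2KO spleen 1, GIT2KO thymus 1, GIT2KO thymus 2 or WT thymus 3. In all, 11 of 35 alternatives lost it, the 4 groups fitted alone among them. Cpt1b, the muscle and brown fat form of the enzyme that admits fatty acids to mitochondria, followed the same pattern, with an effect of -1.12 in spleen and 1.14 in thymus, but its second probe did not pass, at -1.53 (adjusted p = 0.154). Pisd-ps2, a pseudogene, had the largest opposite difference below 0, at -3.32 ± 0.52 (adjusted p = 0.000536), but WT spleens spread widely, at 7.62, 5.61 and 8.09. Fgf13, an intracellular fibroblast growth factor homologue, passed on 1 of 3 probes at -1.97 (adjusted p = 0.00218), and the others gave 0.48 and -0.51. Syne1, Gsk3b and Dele1 rose in GIT2KO spleen and fell in GIT2KO thymus by under 2-fold in each, but a second Syne1 probe gave a difference of 0.16 (adjusted p = 0.686).

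Some granule genes of developing neutrophils had higher effects in spleen. Of 25 listed neutrophil genes 20 were tested, and 7 had a higher effect in spleen (Ngp, Elane, Ctsg, Cd177, Chil1, Cebpe and Fcnb), against 1.83% of all genes, and none a lower one. The median difference of the list was 2.43, against 0.01 over all genes, and 18 of 20 were above 0. Without WT animal 1 the median was 1.44. Ngp, a granule protein of immature neutrophils, lay at 11.71, 12.67 and 11.41 in GIT2KO spleens and 5.50, 9.83 and 8.39 in WT spleens, 16.3-fold higher, and was detected in no thymus. The genotypes did not overlap, and the WT spleens were spread more widely, with WT spleen 1 the lowest. The call was lost without GIT2KO spleen 2 and with the 4 groups fitted alone, and in 7 of 35 alternatives in all. Elane, neutrophil elastase, gave 11.23, 11.88 and 10.4 in GIT2KO spleens and 6.43, 9.26 and 7.86 in WT spleens, with a difference of 3.21 ± 0.61 (adjusted p = 0.00411 by limma). Cebpe, the transcription factor of late granule genes, differed by 2.62 ± 0.54 (adjusted p = 0.00864).

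Ms4a3, a membrane protein of granulocyte precursors that is in no list, lay at 9.21, 9.86 and 8.32 in GIT2KO spleens and 4.84, 7.06 and 6.22 in WT spleens. Of 3 Mpo probes, which read myeloperoxidase, the most intense gave 2.62 (adjusted p = 0.0568) and the other two passed at 3.31 and 3.82. S100a8 and S100a9, which mature neutrophils express most, were the 2 members below 0, at -0.52 and -0.37, and neither passed. S100a8 averaged 14.1 in GIT2KO spleens and 12.6 in WT spleens, so that GIT2KO spleen was near the top of the scale. As its difference was below 0, its estimated rise was larger in thymus than in spleen. In RNA of a whole organ, more cells of a type and more RNA per cell cannot be told apart.

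The mean level of the 20 neutrophil genes was 11.07, 11.57 and 10.32 in GIT2KO spleens and 7.31, 9.79 and 9.01 in WT spleens, with no overlap. In thymus it was 5.72, 5.83 and 5.58 in GIT2KO and 5.75, 5.2 and 5.62 in WT, and 8 of the 20 genes were detected in no thymus. WT spleen 1, the lowest, also detected the smallest share of probes of the 14 arrays, at 45.9%, and without it the count was still 7. The count of 7 was 4 without GIT2KO spleen 2 and 14 without WT spleen 2. It was 0 when the 4 groups were fitted alone and 1 when each organ was normalized by itself.

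The promoters of 3 of these granule genes are shown as those of the neutrophil genes with the largest passing differences. Each run is the 250 bases before the RefSeq start in the GRCm38.p6 build, 5′ to 3′, with capitals on TTGCNNAA, the core letters bound by C/EBP factors, in Ngp, and on GAGGAAG, letters bound by PU.1, in Elane and Ctsg.
Ngp (chr9:110419558-110419807, plus strand): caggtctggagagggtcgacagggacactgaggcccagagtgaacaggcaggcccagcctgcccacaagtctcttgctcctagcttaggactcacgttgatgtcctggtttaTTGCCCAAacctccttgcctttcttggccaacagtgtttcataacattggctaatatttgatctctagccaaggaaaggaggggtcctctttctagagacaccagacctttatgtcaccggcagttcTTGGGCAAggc
Elane (chr10:79886062-79886311, plus strand): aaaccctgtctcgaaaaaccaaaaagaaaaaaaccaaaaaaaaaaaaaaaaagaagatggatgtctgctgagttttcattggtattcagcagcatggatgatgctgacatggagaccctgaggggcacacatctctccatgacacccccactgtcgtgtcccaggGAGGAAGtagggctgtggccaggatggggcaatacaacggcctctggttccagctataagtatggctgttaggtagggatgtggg
Ctsg (chr14:56102575-56102824, minus strand): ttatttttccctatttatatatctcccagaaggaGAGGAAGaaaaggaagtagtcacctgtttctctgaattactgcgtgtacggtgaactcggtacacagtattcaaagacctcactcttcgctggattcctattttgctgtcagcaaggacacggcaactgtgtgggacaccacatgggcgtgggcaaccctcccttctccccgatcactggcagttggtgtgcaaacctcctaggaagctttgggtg
Of the 7 neutrophil genes that passed, 6 have a promoter in the table, and both strands were searched. GAGGAAG was in 2 of 6 (Ctsg and Elane), against 10.6% of all 32851 promoters and 3 of 7 erythroid and megakaryocyte genes that passed, and TTGCNNAA in 2 of 6 (Fcnb and Ngp), against 9.56% of all and 4 of the 7 H2B histone genes that passed. These are matches of letters and do not show a bound site.

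Some red cell and platelet genes also had higher effects in spleen. Of 24 erythroid genes tested, 6 were detected in no thymus. A higher effect in spleen was found for 4 of the 24, against 1.83% of all genes. These were Car2, a carbonic anhydrase, Tspan33, a tetraspanin of red cell precursors, Rhag, the Rh-associated ammonium channel, and Uros, an enzyme of heme synthesis. The list median was 1.40 and 20 of 24 were above 0, and without WT spleen 1 the median was 0.67. Car2 lay at 11.27, 11.48 and 11.44 in GIT2KO spleens and 6.86, 9.94 and 9.47 in WT spleens, with no overlap, and its thymus values overlapped. The globin and heme genes Hba-a1 (-2.94), Alas2 (-2.09) and Hbb-b2 (-0.89) lay on the other side of 0 and did not pass, as did Slc4a1 (-0.26), the anion exchanger of the red cell. Hba-a1 averaged 14.63 in GIT2KO spleens and 14.62 in WT spleens, at the top of the scale, where a rise could not be read, and 13.61 in GIT2KO thymuses and 10.65 in WT thymuses. The list mean was 10.76, 10.62 and 10.31 in GIT2KO spleens and 7.57, 9.68 and 9.81 in WT spleens. The count of 4 rested on single samples. It was 0 without GIT2KO spleen 1, GIT2KO spleen 2, GIT2KO thymus 1, GIT2KO thymus 2 or WT thymus 3, it was 1 without GIT2KO thymus 3, WT thymus 1 or WT thymus 2, and it was 15 without WT spleen 2, 13 without WT spleen 3 and 0 with the 4 groups alone.

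Of 12 megakaryocyte genes tested, 4 had a higher effect in spleen, against 1.83% of all genes. The list median was 1.22, 11 of 12 were above 0, and 5 were detected in no thymus. F2rl2, a thrombin receptor, differed by 1.58 ± 0.30, Gp9 and Gp1bb, chains of the platelet receptor for von Willebrand factor, by 1.42 ± 0.28 and 1.31 ± 0.29, and Treml1, a receptor of platelet granules, by 1.34 ± 0.24 (adjusted p = 0.0052, 0.0054, 0.0128 and 0.00254 by limma). Treml1 lay at 10.88, 10.78 and 10.65 in GIT2KO spleens and 9.07, 9.52 and 9.04 in WT spleens, with less spread than the granule genes, and was detected in no thymus. The count was 4 to 6 without any 1 sample, 2 without GIT2KO animal 1, 2 with the 4 groups alone and 0 with the animal as a fixed block in the 12 samples alone. Among 13 red pulp macrophage genes, Hmox1, the heme oxygenase that breaks down heme, and Treml4 passed, at 1.79 and 1.30, and neither did with the 4 groups alone. Hmox1 lay at 10.95, 11.08 and 11.35 in GIT2KO spleens against 9.15, 10.87 and 9.72 in WT spleens. Mcpt8, a basophil protease, rose at least 1.88-fold in GIT2KO spleen, at 7.26, 6.10 and 5.55 against 4.53, 4.97 and 5 in WT spleen, where no array detected it.

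**Figure D3:**
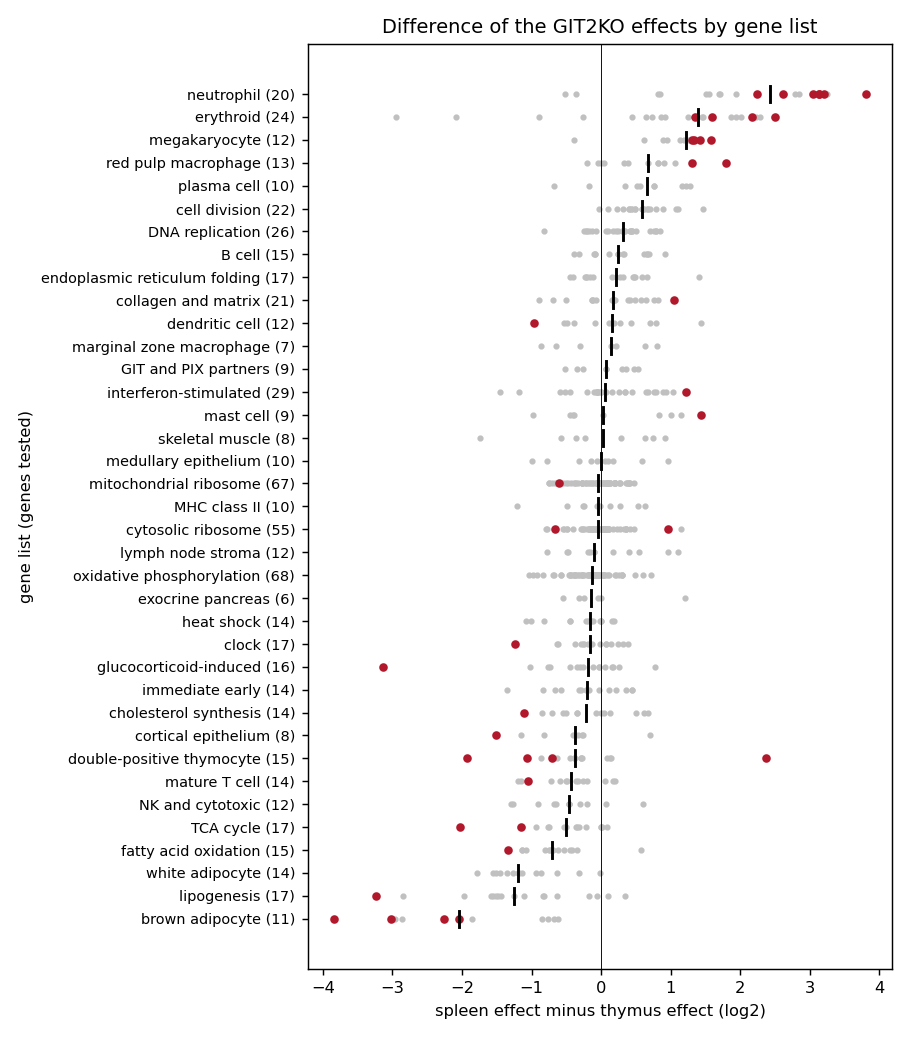
Difference of effects (spleen effect minus thymus effect, log2) of each tested gene, by gene list, with the number of genes tested in brackets. Red points passed adjusted p 0.05, grey points did not, and black bars are list medians, which run from 2.43 for neutrophil genes down to -2.05 for brown adipocyte genes.

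Some genes for core and linker histones, which cells make when they copy DNA, had higher effects in spleen. This group, taken after its values were seen, holds the 43 tested genes named H1f1 to H1f5, H2ac, H2bc, H3c and H4c, most of which sit in a cluster on chromosome 13 and a smaller one on chromosome 3. A higher effect in spleen was found for 22 of the 43, against 1.83% of all genes, and a lower one for none, with called differences of 0.92 to 2.2, and 40 of 43 lay above 0. The median effect was 1.09 in spleen and -0.08 in thymus. By class, 7 of 12 H2A genes passed, 7 of 9 H2B genes, 4 of 10 H4 genes, 3 of 9 H3 genes and 1 of 3 H1 genes. Of the 7 H2A genes that passed, 6 stood above 13 in every thymus, near the 14.65 that was the top of the scale, where a thymus effect may not be readable, and the other 16 of the 22 stood below. On chromosome 13, 20 of 36 passed with a median of 1.31, and on chromosome 3, 2 of 7 with a median of 0.21.

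H2bc11, an H2B gene, lay at 10.83, 10.11 and 10.59 in GIT2KO spleens and 8.48, 9.06 and 8.40 in WT spleens, with no overlap, and at 9.84, 9.96 and 9.94 in GIT2KO thymuses and 9.78, 9.99 and 9.86 in WT thymuses. Its spleen effect was 1.87, its thymus effect 0.04, and the difference 1.83 ± 0.28 (adjusted p = 0.000399 by limma). H2ac21, an H2A gene on chromosome 3, had the largest difference, at 2.20 ± 0.36 (adjusted p = 0.000789). H2ac7 lay at 13.18, 13.11 and 13.15 in GIT2KO spleens and 11.09, 11.74 and 11.34 in WT spleens. In thymus it stood at 13.72 to 14.21, and H2ac20, which passed at 1.01, at 14.44 to 14.65. H2bc18 was the lowest, at -0.61 ± 0.49, and did not pass, while its second probe gave 0.95 and did not pass either.

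The mean over the 43 genes was 9.56, 8.91 and 9.02 in GIT2KO spleens and 8.04, 8.40 and 8.04 in WT spleens, and 8.90, 9.11 and 9.14 in GIT2KO thymuses and 9.13, 9.38 and 8.84 in WT thymuses. The genotypes were apart in spleen and overlapped in thymus, and GIT2KO spleens reached the range of the thymus. The count of 22 was 12 without GIT2KO spleen 1 or without WT thymus 2, 13 without WT spleen 3 or without GIT2KO thymus 1, and 10 with the 4 groups alone. It was lowest, at 7, without GIT2KO animal 1 and with the animal as a fixed block in the 12 samples alone. The median stayed between 0.91 and 1.43 under the alternatives on the log2 scale. Histone genes are close copies of each other, so a probe may read more than 1 of them and the 22 are not separate observations. No gene of a list of 22 cell division genes passed, though 21 of them lay above 0 with a median of 0.59, and 26 DNA replication genes had a median of 0.32 with none passing. Over the alternatives these medians ran from 0.25 (without WT animal 1) to 1.01 (without WT animal 3), and from 0.10 (without WT spleen 1) to 0.64 (without WT animal 3).

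**Figure D4:**
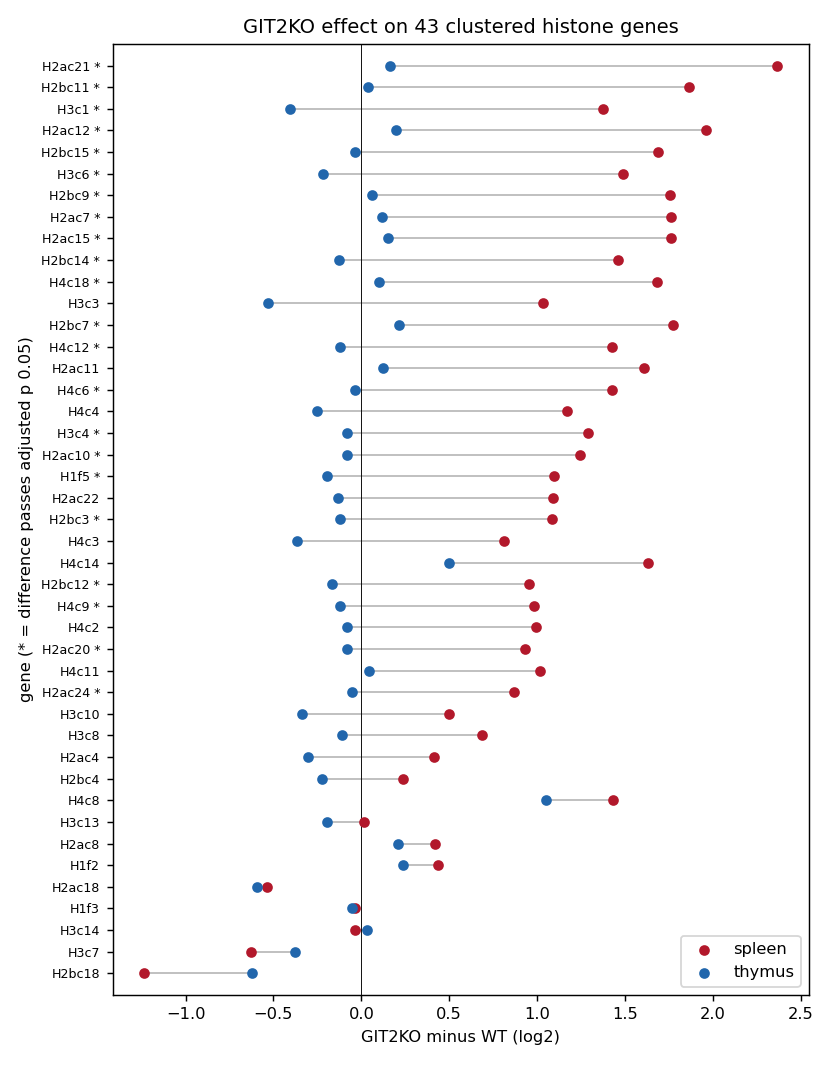
Effect of GIT2KO on 43 clustered histone genes (log2), in spleen (red) and thymus (blue), ordered by the difference, with a star for those that passed. Spleen effects reach 2.37, while most thymus effects stand close to 0.

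Promoters of 3 H2B genes that passed are shown, chosen because they hold ATTTGCAT, in capitals, the octamer that histone H2B promoters are known for and that OCT1 binds. They are not the H2B genes with the largest differences. Each run is again the 250 bases before the RefSeq start in GRCm38.p6, 5′ to 3′.
H2bc14 (chr13:21721794-21722043, plus strand): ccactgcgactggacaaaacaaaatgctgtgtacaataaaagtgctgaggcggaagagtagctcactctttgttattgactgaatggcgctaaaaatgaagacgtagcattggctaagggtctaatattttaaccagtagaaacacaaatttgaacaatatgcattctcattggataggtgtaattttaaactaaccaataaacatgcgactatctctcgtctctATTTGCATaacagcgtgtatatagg
H2bc12 (chr13:22035571-22035820, plus strand): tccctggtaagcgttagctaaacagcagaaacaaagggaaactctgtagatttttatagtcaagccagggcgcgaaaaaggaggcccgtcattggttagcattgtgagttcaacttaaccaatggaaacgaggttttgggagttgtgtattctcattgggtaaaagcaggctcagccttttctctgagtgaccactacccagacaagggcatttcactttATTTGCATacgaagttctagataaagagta
H2bc3 (chr13:23746484-23746733, plus strand): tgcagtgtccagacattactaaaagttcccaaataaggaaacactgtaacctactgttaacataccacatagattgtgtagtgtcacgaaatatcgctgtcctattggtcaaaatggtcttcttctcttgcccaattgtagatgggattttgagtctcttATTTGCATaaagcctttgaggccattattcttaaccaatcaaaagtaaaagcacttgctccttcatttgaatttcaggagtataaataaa
On either strand the octamer was in 3 of the 7 H2B genes that passed, at 25, 30 and 90 bases before the start, and in 1.6% of all 32851 promoters. It was also in H2bc18, which did not pass. Its letters overlap those of TTGCNNAA in H2bc14 and H2bc3.

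Some genes of the T cell receptor pathway fell more in GIT2KO spleen than in GIT2KO thymus. Of 22 tested genes of the T cell receptor and its signalling, 12 had a lower effect in spleen, against 1.23% of all genes. None had a higher one, all 22 were below 0, and the median difference was -0.85. The group was taken after its values were seen, so its counts follow in part from that choice and do not test the pathway. Cd3e, a signalling chain of the receptor, lay at 9.44, 9.08 and 9.58 in GIT2KO spleens and 10.75, 10.08 and 10.55 in WT spleens, 2.13-fold lower with no overlap. In thymus it lay at 12.27, 12.16 and 12.29 in GIT2KO and 12.30, 12.33 and 12.21 in WT, and the difference was -1.06 ± 0.19 (adjusted p = 0.00254 by limma). Cd3g (-1.55) and Cd3d (-0.85), the partner chains, passed too. So did the coreceptor chain Cd8b1 (-1.06 ± 0.21), whose thymus level of 14.28 to 14.44 is near the top of the scale, the kinase Zap70 (-0.69 on 1 of 3 probes), the adaptor Lat (-1.21) and the factor Gata3 (-1.09), which directs T helper cells.

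Themis, which T cells need for selection in the thymus, differed by -1.92 ± 0.47 (adjusted p = 0.0244), or by -1.51 with GIT2KO spleens at the detection limit. It was not detected in GIT2KO spleens, and 1 WT spleen stood at 7.34 with the others at 5.64 and 5.6. Cd4 (-0.29) and Cd5 (-0.50) did not pass. The call for Themis was lost without GIT2KO spleen 2, GIT2KO thymus 1, WT thymus 2 or WT thymus 3. In all, 12 of 35 alternatives lost it, the 4 groups fitted alone among them. The mean of the 22 genes was 8.46, 8.22 and 8.58 in GIT2KO spleens and 9.34, 9.13 and 9.27 in WT spleens, against 10.82, 10.63 and 10.70 in GIT2KO thymuses and 10.73, 10.65 and 10.67 in WT thymuses. The count of 12 was 3 without GIT2KO spleen 2, 6 without GIT2KO thymus 1 or WT thymus 2, 7 without GIT2KO thymus 3, 3 with arrays scaled to their median and 1 with the 4 groups alone, and the median stayed between -1.03 and -0.79. Of the lists for whole cell types, the mature T cell list had 1 of 14 lower (Cd3e, median -0.43), the natural killer and cytotoxic list 0 of 12 (median -0.46) and the B cell list 0 of 15 (median 0.24). The mature T cell median was -0.24 without WT spleen 1, and the natural killer median ran from -0.77 without WT thymus 3 to -0.23 without WT thymus 2. The mature T cell mean was lower in both organs, at 8.81, 8.52 and 8.91 in GIT2KO spleens and 10.05, 9.55 and 9.81 in WT spleens, and at 8.97, 8.74 and 9.16 in GIT2KO thymuses and 9.52, 9.31 and 9.84 in WT thymuses.

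**Figure D5:**
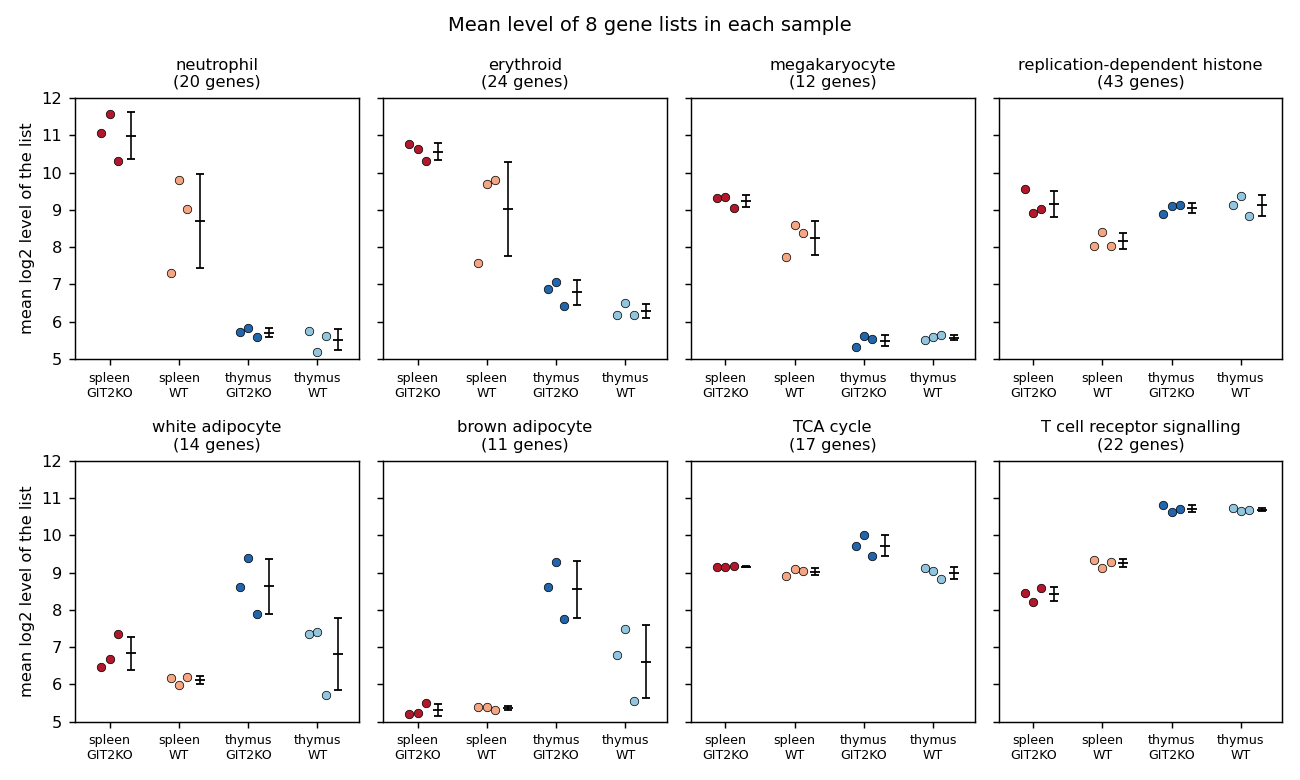
Mean log2 level of 8 gene lists in each of the 12 samples (points, with mean and SD of the 3 samples of a group). Neutrophil, megakaryocyte and histone genes are higher in all 3 GIT2KO spleens than in any WT spleen, T cell receptor genes are lower, and adipocyte genes are highest in GIT2KO thymuses.

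Some genes of brown fat rose more in GIT2KO thymus than in GIT2KO spleen. Of 11 brown adipocyte genes tested, 4 had a lower effect in spleen (Ucp1, Cox7a1, Cpt1b and Acot11), against 1.23% of all genes. All 11 were below 0, and the median was -2.05. Of the 11, 5 were detected in no spleen, so that their differences rest on thymus, and Cox7a1 was detected on 1 spleen array. Ucp1, the uncoupling protein that makes heat in brown fat, lay at 10.64, 11.27 and 9.27 in GIT2KO thymuses and 6.38, 8.66 and 4.58 in WT thymuses, 14.5-fold higher, and was detected in no spleen. WT thymus 3 stood apart, with the lowest level, but the 3 GIT2KO values were above all 3 WT values. The difference was -3.83 ± 0.84 (adjusted p = 0.0128 by limma). That SE pools the spread of all 9 groups. The SD was 1.02 in GIT2KO thymuses and 2.05 in WT thymuses, but 0.05 in the spleens of either genotype. Cox7a1, a heart and brown fat subunit of complex IV, gave 10.68, 11.38 and 9.51 in GIT2KO thymuses and 7.74, 8.72 and 5.49 in WT thymuses.

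Scd1, which makes monounsaturated fatty acids and is high in adipocytes and liver, was the 1 lipogenesis gene of 17 to pass, at -3.24 ± 0.80 (adjusted p = 0.0281), with a list median of -1.25. It lay at 13.35, 13.99 and 13.36 in GIT2KO thymuses and 11.37, 12.23 and 9.04 in WT thymuses, while the spleens of both genotypes ran from 11.24 to 12.22 and overlapped. The call was lost without GIT2KO spleen 1, GIT2KO spleen 2, WT spleen 3, GIT2KO thymus 2 or WT thymus 3. In all, 13 of 35 alternatives lost it, the 4 groups fitted alone among them. A lower effect in spleen was found for 1.23% of all genes. Among fuel oxidation genes, Hadhb (-1.34), a subunit of the trifunctional protein, passed as 1 of 15 fatty acid oxidation genes. In the TCA cycle list 2 of 17 passed, Dld (-2.03) and Pdha1 (-1.15), subunits of pyruvate dehydrogenase. That count of 2 was 0 without GIT2KO spleen 3, WT spleen 3, GIT2KO thymus 1 or WT thymus 3, and 1 without GIT2KO spleen 1, GIT2KO spleen 2, GIT2KO thymus 2, WT thymus 1 or WT thymus 2. Of 68 oxidative phosphorylation genes none passed, and their median was -0.13, or 0.01 with arrays scaled to the median.

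The general adipocyte markers lay on the same side. All 14 tested white adipocyte genes were below 0, with a median of -1.19, and none passed. Without WT thymus 3 the median was -0.56, and up to 5 of the 14 lay above 0 under the alternatives. Their mean was 8.61, 9.38 and 7.89 in GIT2KO thymuses and 7.36, 7.40 and 5.71 in WT thymuses, with no overlap, against 6.48, 6.69 and 7.34 in GIT2KO spleens and 6.18, 5.99 and 6.2 in WT spleens. All 14 were detected in thymus and 3 of them in no spleen. Adipoq, the adipocyte hormone, lay at 10.44, 11.54 and 10.09 in GIT2KO thymuses and 9.11, 9.12 and 4.88 in WT thymuses, and its difference of -1.56 had a 95% interval of -4.51 to 1.39. The amount of fat tissue in each thymus is not given in the labels, and its part in these differences was not tested. The brown adipocyte count of 4 was 1 without GIT2KO spleen 2, WT spleen 3 or GIT2KO thymus 2, 2 without GIT2KO spleen 1, GIT2KO thymus 1 or WT thymus 3, and 0 with the 4 groups alone.

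Of the genes that the study itself names, Git2 was the 1 whose effect differed between the organs past the threshold. The clock repressors Per1 and Per2 differed by 0.07 (95% interval -0.62 to 0.76) and 0.38 (-0.05 to 0.81), and the clock output factors Tef and Dbp by -0.13 (-0.72 to 0.45) and -0.25 (-0.85 to 0.34). Glo1, which clears methylglyoxal, had the narrowest interval, -0.37 to 0.32, around effects of 1.31 in spleen and 1.33 in thymus. The lymphocyte receptors Btla (-0.17, interval -0.69 to 0.36) and Tnfrsf4 (0.19, interval -0.56 to 0.95), and Ndufb10, Ddit4, Sin3a and Rnase4 likewise missed the threshold, with adjusted p values of 0.33 to 0.978 by limma over all of these genes but Git2. These intervals leave room for differences of up to about 2-fold for most of the genes, so equal effects are not shown. Apart from Git2, the study drew these genes from transcripts that moved the same way in spleen, thymus and lymph nodes on these arrays. Small differences between spleen and thymus were thus partly set by that choice. The 1 clock gene of 17 that passed was Nr1d2, the REV-ERB beta repressor, which lay at 6.99, 7.07 and 7.37 in GIT2KO spleens and 8.75, 9.31 and 9.85 in WT spleens, and at 7.48, 7.08 and 7.22 in GIT2KO thymuses and 8.25, 8.16 and 8.12 in WT thymuses. It fell in both organs, 4.47-fold in spleen and 1.89-fold in thymus, with a difference of -1.25 ± 0.31 (adjusted p = 0.0314). The call was lost without GIT2KO spleen 1, GIT2KO spleen 2, WT spleen 3, GIT2KO thymus 1, WT thymus 2 or WT thymus 3. In all, 15 of 35 alternatives lost it, the 4 groups fitted alone among them.

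Of the other lists, the interferon-stimulated list had Igtp, an interferon-induced GTPase, as the 1 of 29 genes to pass, at 1.22 ± 0.25 (adjusted p = 0.00822), with levels of 11.21, 11.06 and 10.83 in GIT2KO spleens and 10.4, 10.12 and 10.32 in WT spleens. The collagen and matrix list had Col14a1 (1.04) as 1 of 21, and the dendritic cell list Cd83 (-0.97) as 1 of 12. The double-positive thymocyte list had Aqp11 on the higher side and Themis, Cd8b1 and Satb1 (-0.70) on the lower side, of 15. A single gene was lower in each of the lists for cortical epithelium (Tbata, -1.52, of 8), cholesterol synthesis (Sc5d, -1.11, of 14), glucocorticoid-induced genes (Pdk4, of 16) and the mitochondrial ribosome (Mrps33, -0.61, of 67). Tbata was detected on 1 spleen array, of WT, and its difference was -0.75 with GIT2KO spleens at the detection limit. In the cytosolic ribosome Rpl24 (0.96) was higher and Rpl37a (-0.67) lower, of 55. These counts stand beside 1.83% of all genes higher and 1.23% lower in spleen, so a single passing member is not a result about its list. Plasma cell genes had a median of 0.66 with 0 of 10 passing. No member passed in the lists for MHC class II, heat shock, immediate early genes, endoplasmic reticulum folding, medullary epithelium, marginal zone macrophages, exocrine pancreas, skeletal muscle, lymph node stroma or the GIT and PIX partners, and their medians lay between -0.20 and 0.21.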

How the data were processed

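Per the labels, RNA was extracted with Trizol, and the submitters' processing notes name GenomeStudio 2011.1. The intensity values are the deposited non-normalized signals, and the authors deposited a detection p-value beside each signal. The deposited score values are the authors' z-transformed log10 signals, and recomputing them gave differences of at most 5e-10. They were used as an alternative.

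From the intensities, neqc of limma 3.58.1 (R 4.3.3) corrected background with the detection p-values, added 16 and quantile-normalized the 31 arrays before log2 values were taken. Where a sample had a repeat array, both were averaged. The 2 spleen or thymus samples run again differed from their repeat by an SD of 0.305 and 0.205 over probes, against 0.573 and 0.374 for the closest other sample. Arrays detected 45.9% to 52.8% of probes, and the mean signal of WT spleen 3 (220 and 208.6) was below the 343.1 to 571.5 of the other spleen and thymus arrays. The number of arrays limits the precision.

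A linear model with 9 groups and 27 samples (18 residual degrees of freedom) was fitted with limma, with a trend in the variance, and tested on simulated data. Where a gene had several tested probes, the one brightest on average in the 12 samples stands for it. The genes named are Git2 and those the study names, up to 15 of the largest passing differences in each direction, up to 5 passing members of each list or else the 2 largest, and up to 10 with opposite effects. Genes outside this rule were chosen after their values were seen. Probe annotation gave 1 symbol to 23978 probes and none to 1719, updated through RefSeq (GRCm38.p6). The members and the 37 gene lists were chosen with earlier results of these data known.

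Spleen and thymus of 1 animal are paired by the labels. After removal of group means, their residuals correlated at 0.086, 0.205 and 0.117 in GIT2KO mice and -0.195, -0.085 and -0.05 in WT mice. GIT2KO and WT animals share only a number. The p-values and the SEs rest on a spread pooled over all 9 groups and 27 samples, lymph nodes included, with 3 animals a group. For a gene that 1 organ does not express, the SE can thus understate the spread in the other organ. The main model treated tissues of 1 animal as independent. Array slide and scan are not in the files used here, so a batch was not tested.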

Additional observations from a re-analysis of the deposited data

Results flagged for a closer look

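The interaction test separated the organs for 454 transcripts, of which 19 had opposite effects that each passed, 14 of them detected in all 4 groups. The 11 named genes that passed under every alternative run are given with the difference of effects. It was above 0 for Gm525 (4.19), Wnt8b (3.84), Fxyd2 (3.32), Adgrg3 (3.23), Ms4a3 (3.18), Prss29 (2.88) and Aqp11 (2.37). It was below 0 for H2-Bl (-3.54), Slc5a9 (-2.32), Fgf13 (-1.97) and Klri2 (-1.96). With 3 samples a group, single samples that stand apart were not tested for.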

How the results depend on the processing

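The count of 454 transcripts (281 higher, 173 lower in spleen) and the 19 with opposite effects stayed within 1.5 times under settings not named here. Scaling to the array median gave 227 transcripts (172 and 55) with 6 opposite, normalizing each organ alone 113 (67 and 46) with 10, normalizing and fitting the 12 samples alone 99 (60 and 39) with 8, and fitting the 4 groups alone 110 (66 and 44) with 10. Without a filter 12 were opposite. With the animal as a fixed replicate block the count was 694 (298 lower in spleen), with it as a random block 542 at a correlation of 0.0463, and with the fixed block in 12 samples alone 65 (40 and 25). Leaving out 1 sample or 1 animal gave 133 to 1171 transcripts, 90 to 666 of them higher and 43 to 505 lower in spleen, and 5 to 36 opposite. The cause of these changes was not tested, beyond the fewer samples and degrees of freedom of the smaller fits. No difference of the 59 named genes that passed turned its sign in any of 35 settings, and 559 of 2065 gene and setting pairs lost the call. These genes were picked as passing on the same samples that the settings reuse, so the kept signs do not test their direction. The block for array slide was not run, because slides are not named in the files used here. Transcripts near the detection limit have differences that are bounded by it.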

Other observations

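Single class I genes of the major histocompatibility complex, which present peptides to T cells or act as non-classical relatives, passed on either side of 0. They were chosen after their values were seen, and the share of class I genes that passed was not counted. Of all genes, 1.83% had a higher and 1.23% a lower effect in spleen, so these are values of single genes. H2-T10 averaged 9.93 in GIT2KO spleens and 8.24 in WT spleens, and 12.28 in GIT2KO thymuses and 8.76 in WT thymuses, so it rose in both organs and more in thymus, with a difference of -1.83 ± 0.24 (adjusted p = 7.45e-05 by limma). H2-K1, the classical gene, had an effect of 0.11 in spleen and 1.31 in thymus (difference -1.20, adjusted p = 0.0128), though its second probe gave -0.56 and did not pass. H2-T24 had an effect of 1.40 in spleen (difference 1.5, adjusted p = 0.0361). It was detected in no thymus, so its difference rests on spleen. These genes are similar in sequence, and whether a probe reads more than 1 of them was not tested.

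Other single genes, also chosen after their values were seen, are given as values. Scnn1g, a subunit of the epithelial sodium channel, averaged 6.12 in GIT2KO thymuses and 7.69 in WT thymuses (difference 1.49, adjusted p = 9.6e-05 by limma), and Tmprss2, a membrane serine protease, 6.12 and 7.27 (difference 1.08, adjusted p = 0.00945), and neither was detected in spleen. In spleen, Sfrp1, a secreted WNT inhibitor, averaged 8.64 in GIT2KO and 6.73 in WT (difference 2.33, adjusted p = 0.00175), and Gpnmb, a glycoprotein of macrophages, 11.56 and 9.68 (difference 2.06, adjusted p = 0.0102). Il7, the stromal cytokine that T cells need to survive, had an effect of -1.01 in spleen and 0.41 in thymus (difference -1.42, adjusted p = 0.0263).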
